A study of Mus musculus with 32 samples.

Results

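Liver of palm oil-fed mice was compared between the end of a hyperinsulinemic-euglycemic clamp and the basal state, across all genes that the array names. Of the 32 arrays of the study, 1 per mouse, 18 belong to this comparison: 9 clamped and 9 basal mice that had received palm oil. The 14 arrays of mice given water, 7 clamped and 7 basal, are the comparator. Of 41345 probe sets, 23521 carry a single gene symbol, and taking for each symbol the probe set with the highest mean left 22180 genes, all of which were tested.

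All mice were male wild-type C57BL/6NTac animals aged 14 weeks, kept under pathogen-free conditions and fasted for 10 h before gavage with palm oil (2 g/kg) or water. Basal mice were killed under isoflurane 6 h after the gavage. Clamped mice had been fitted with a jugular catheter under ketamine and xylazine some days earlier. From 6 h after the gavage they received a glucose tracer for 110 min and then insulin at 15 pmol/kg/min, with glucose infused at a variable rate to keep blood glucose steady. They also received a bolus of 2-deoxyglucose and were killed with intravenous ketamine and xylazine. Clamped and basal mice therefore differed in surgery, infusions, anaesthetic and hours since gavage as well as in insulin, and these cannot be told apart here. Animal numbers ran from 15 to 31 in the clamped and from 33 to 51 in the basal palm oil mice, so that the order of the animals cannot be told apart from the clamp either.

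A clamp raises insulin while glucose is held steady, so that the liver sees insulin without hypoglycemia. In hepatocytes insulin acts through AKT, which keeps FOXO1 out of the nucleus and lowers genes of glucose output, and through SREBP1C, which raises genes of fatty acid synthesis. The liver is also the main source of acute phase proteins, which it makes in response to interleukin 6 and interleukin 1 after injury or infection. Palm oil is a fat rich in saturated fatty acids.

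Values are log2 array values, so that 1 unit stands for a doubling of the signal, and near the background the scale understates differences. Array medians lay between 1.65 and 1.77 in all 32 arrays, and the number of arrays limits the precision. The 3 palm oil basal arrays of animals numbered 44 or higher had a narrower spread of values (interquartile range 2.49 to 2.51) than the other 6 basal arrays (2.72 to 2.93) and the 9 clamped arrays (2.73 to 2.82). The mean of 10 pancreatic acinar markers was over 6 log2 units in 5 of the 9 basal arrays, the 3 numbered 44 or higher among them, and in 2 of the 9 clamped arrays. The mean of 9 hepatocyte markers lay between 9.44 and 9.97 in basal and between 9.72 and 9.96 in clamped arrays, although Ass1 was dim (3.33 over all arrays). Alb (albumin) lay between 10.89 and 11.35 in basal and between 11.14 and 11.35 in clamped arrays. Counts are therefore also given with the basal arrays numbered 44 or higher left out, and without the arrays over 6 units, which leaves 4 basal and 7 clamped palm oil arrays. The part of either feature in the results was not tested beyond these values.

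The clamped livers of palm oil mice differed widely from the basal ones. Acute phase proteins rose in 21 of 24 cases and immediate early genes in 17 of 25, while 8 of 20 PPARA targets and 8 of 23 enzymes of beta-oxidation fell. Without the arrays over 6 units of acinar markers these counts were 14, 13, 5 and 2. Of 22180 genes, 1678 passed the test (limma on all 32 arrays, adjusted p under 0.05), which is 7.57%. There were 835 genes that rose (3.76%) and 843 that fell (3.80%). The rises were larger: 185 genes rose and 78 fell by at least 2-fold, 42 and 3 by at least 4-fold, and 9 and 0 by at least 8-fold. The median difference was 0.61 among genes that rose and -0.54 among those that fell, against -0.02 over all genes, of which 45.5% lay above 0. All 9 clamped arrays lay above all 9 basal arrays for 192 genes (0.866%) and below them for 130 (0.586%). With each array shifted to 1 common median, 61.9% of the called genes had risen, against 49.8% with the values as deposited. A 2-fold difference in array values lay outside the 95% interval for 96.2% of the genes.

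Called genes were mostly bright ones. With the genes split by mean level into 4 equal parts, 0.216% were called in the dimmest, 1.55% in the next, 11% in the third and 17.5% in the brightest. Among predicted gene models 3.16% were called, and among small RNA genes 4.06%. The counts of called list members below stand beside these shares. Shares near them, as in cholesterol synthesis (15%), glycolysis and glycogen (13.6%) and cell cycle progression (10%), are not read as results about the list.

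**Figure D1:**
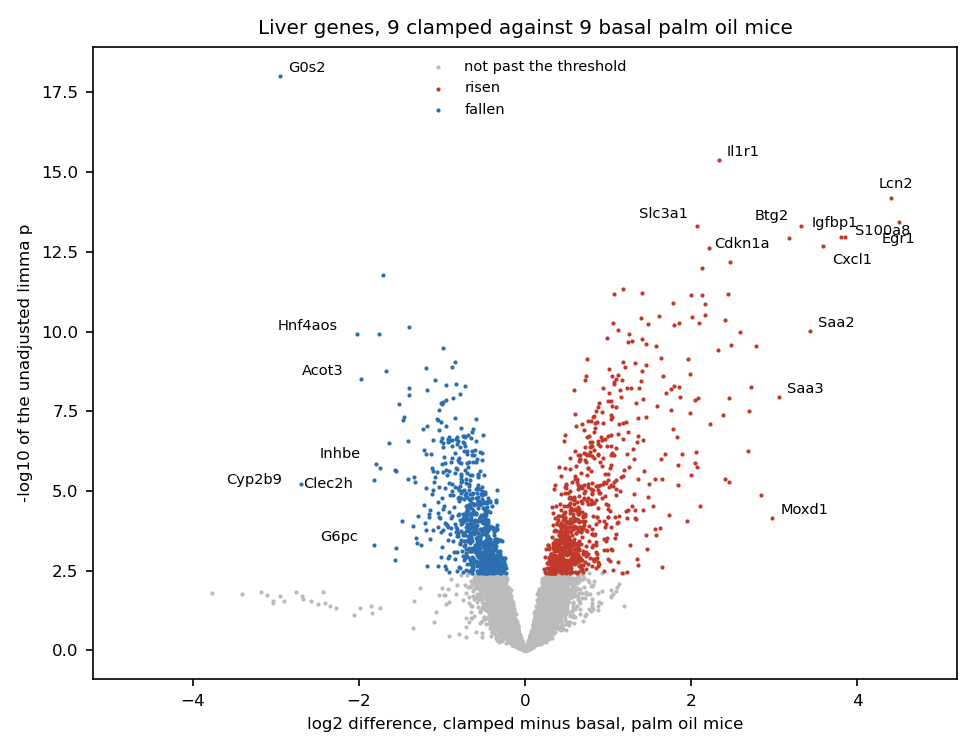
Each point is a gene, with the log2 difference between 9 clamped and 9 basal palm oil mice on the horizontal axis and -log10 of the unadjusted limma p on the vertical axis. The 835 red genes rose and the 843 blue genes fell; G0s2 stands at the top left, and Egr1, Lcn2, S100a8, Igfbp1 and Cxcl1 lie farthest to the right.

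Egr1, an immediate early transcription factor, had the largest rise. Its values lay at 2.77, 2.94 and 4.48 (lowest, median and highest) in the basal and at 6.55, 7.97 and 8.85 in the clamped arrays. The groups did not overlap, and the difference was 4.50 ± 0.36 (log2, SE, n = 9 and 9; limma adjusted p = 1.87e-10), or 22.6-fold in array signal. Lcn2, lipocalin 2, which binds bacterial iron carriers, lay at 3.89, 4.64 and 5.84 in basal and at 8.22, 9.29 and 10.12 in clamped arrays. It rose by 4.40 ± 0.33 (limma adjusted p = 4.91e-11), again with no overlap. S100a8, the calprotectin subunit carried by neutrophils, lay at 1.81, 3.21 and 4.8 in basal and at 6.37, 7.14 and 7.77 in clamped arrays, a rise of 3.85 ± 0.32 (limma adjusted p = 2.82e-10). Cxcl1, a chemokine that draws neutrophils, lay at 3.93, 5.01 and 6.89 in basal and at 8.29, 8.86 and 9.59 in clamped arrays, a rise of 3.59 ± 0.31 (limma adjusted p = 4.46e-10). Every clamped array was above every basal array for these genes.

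G0s2, an inhibitor of the triglyceride lipase ATGL, had the largest fall among genes past the threshold and the smallest p of all genes. It lay at 7.71, 8.15 and 8.81 in the basal arrays and at 4.72, 5.33 and 5.75 in the clamped arrays. The fall was 2.95 ± 0.17 on the log2 scale with no overlap, and the limma adjusted p was 2.11e-14. Falls and rises were ranked among genes past the threshold. Predicted gene models and small RNAs were left out of the ranking, among them Mir122 (-1.57 ± 0.45). The 15 largest falls also included Cyp2b9, a cytochrome P450 (-2.69 ± 0.50), Hnf4aos, the antisense transcript of Hnf4a (-2.03 ± 0.22), Clec2h, a lectin (-1.82 ± 0.34), Inhbe, an activin subunit made by hepatocytes (-1.79 ± 0.31), Lipg, endothelial lipase (-1.74 ± 0.30), Paqr7, a membrane progestin receptor (-1.71 ± 0.16) and Rnf152, a ubiquitin ligase (-1.67 ± 0.20). Krt23, a keratin, differed by -1.63 ± 0.26, Kcnk5, a potassium channel, by -1.56 ± 0.28, and R3hdml by -1.55 ± 0.28. Hsd3b5, a steroid dehydrogenase, differed by -1.56 ± 0.41, with 5 of 9 clamped arrays below all basal ones. Cyp2b9 lost its call without the arrays over 6 units of acinar markers (-2.51, limma adjusted p = 0.0626) and Hsd3b5 under the exact rank sum test (adjusted p = 0.0674) and with the acinar mean as a covariate. With the 6 basal arrays numbered under 44 left out instead, Hsd3b5 (-1.20), Lipg and Kcnk5 were no longer past the threshold.

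Among the 15 largest rises were also genes outside the gene lists. Moxd1, a monooxygenase-like protein, lay at 1.4, 1.64 and 3.70 in basal and at 1.47, 5.38 and 6.79 in clamped arrays. The groups overlapped, since 7 of the 9 clamped arrays lay above all basal ones, and the rise of 2.98 ± 0.66 (limma adjusted p = 0.00257) was lost under the rank sum test (adjusted p = 0.0674) and on leaving out those basal arrays numbered under 44. Tff3, trefoil factor 3, a secreted peptide of mucous epithelia, lay at 2.33, 3.06 and 3.42 in basal and at 3.58, 5.14 and 9.76 in clamped arrays. It rose by 2.84 ± 0.56 with no overlap, and lost its call without the arrays over 6 units of acinar markers (2.94, limma adjusted p = 0.0705). Trim43c, a member of the TRIM family, rose by 2.77 ± 0.32. Slc3a1, part of a cystine transporter, was among the 10 genes with the smallest p, with a rise of 2.07 ± 0.17.

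**Figure D2:**
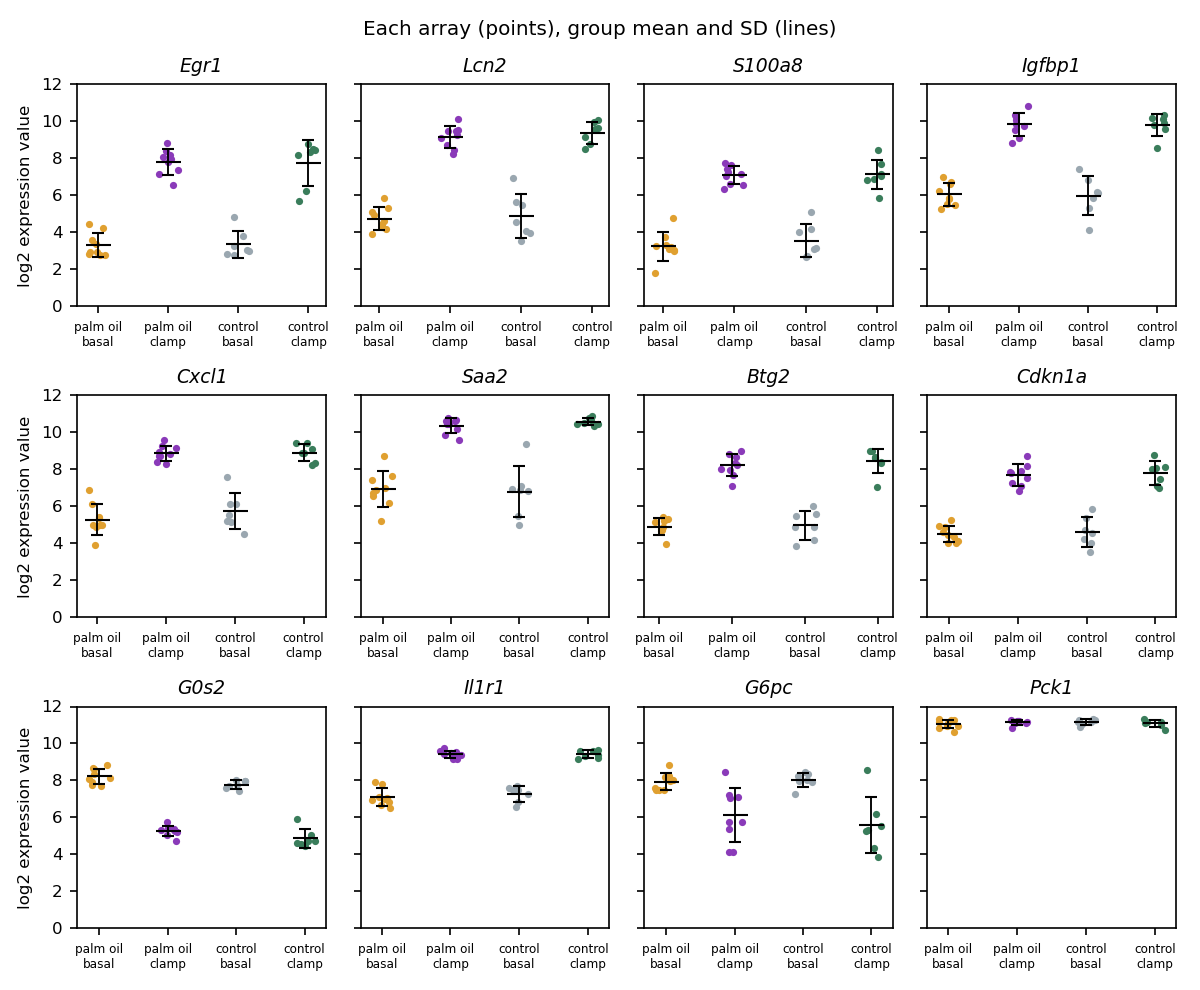
Log2 expression values of 12 genes in each array, with 9 palm oil basal, 9 palm oil clamped, 7 control basal and 7 control clamped mice; lines give the group mean and SD. For Egr1, Lcn2, S100a8, Igfbp1, Cxcl1, Saa2, Btg2, Cdkn1a and Il1r1 all 9 palm oil clamped arrays lie above the 9 basal arrays, for G0s2 below them, while G6pc spreads widely under the clamp and Pck1 overlaps.

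The marker genes Egr1, Lcn2, S100a8, Cxcl1 and G0s2 were set against each other over the 9 clamped arrays, in 10 pairs. Mice with higher Egr1 had lower G0s2, with Pearson r = -0.69 (exact permutation p = 0.0396) and Spearman rho = -0.73 (exact permutation p = 0.0311). Cxcl1 and G0s2 gave r = -0.73 (exact permutation p = 0.0269) and rho = -0.65 (exact permutation p = 0.0666). None of the 10 pairs passed after Benjamini-Hochberg adjustment, with smallest exact permutation adjusted p = 0.198 for Pearson and 0.166 for Spearman. Without the 2 arrays farthest from the median of the first gene, r was -0.81 for Egr1 with G0s2 and -0.63 for Cxcl1 with G0s2. S100a8 and Egr1 gave r = 0.12 (exact permutation p = 0.763).

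Acute phase proteins formed the group with the largest share of called members. Of 24 measured genes, 21 rose (3.76% of all genes did), 0 fell, and all 24 lay above 0. The median difference was 0.63, and 12 of them had no overlap between the groups (0.866% of all genes rose without overlap). Saa2, a serum amyloid A protein, lay at 5.2, 6.89 and 8.72 in basal and at 9.61, 10.46 and 10.76 in clamped arrays, a rise of 3.43 ± 0.37 (limma adjusted p = 6.25e-08). Saa3 lay at 5.12, 6.17 and 7.20 in basal and at 7.30, 9.82 and 10.99 in clamped arrays and rose by 3.06 ± 0.41. Both ranges stood apart. Steap4, a metalloreductase induced by interleukin 6, rose by 2.09 ± 0.22, Serpina3n, a protease inhibitor, by 1.06 ± 0.11, Lbp, which binds lipopolysaccharide, by 1.04, and Apcs, serum amyloid P, by 1.79. Orm2, orosomucoid 2, rose by 2.73 ± 0.35, with 8 of 9 clamped arrays above all basal ones. Haptoglobin Hp rose by 0.36 and the fibrinogen chains Fga, Fgb and Fgg by 0.54, 0.36 and 0.34. Hamp, the iron hormone hepcidin, differed by 0.28 and A2m by 0.07, neither past the threshold. Orm2 and Orm3 are close copies whose signals the array may not separate. Without the basal arrays numbered 44 or higher 18 of the 24 rose, and without the arrays over 6 units of acinar markers 14 did; Hp, Fgb and Fgg were among those lost.

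The promoters of Lcn2 and Saa2 are shown because these secreted proteins lead the list and both windows hold a C/EBP motif, TTGCNNAA on either strand, in capitals. Each is the 250 bases before the start of the gene from RefSeq, build GRCm38.p6 (chr2:32387740-32387989, minus strand, and chr7:46751583-46751832, plus strand).
Lcn2: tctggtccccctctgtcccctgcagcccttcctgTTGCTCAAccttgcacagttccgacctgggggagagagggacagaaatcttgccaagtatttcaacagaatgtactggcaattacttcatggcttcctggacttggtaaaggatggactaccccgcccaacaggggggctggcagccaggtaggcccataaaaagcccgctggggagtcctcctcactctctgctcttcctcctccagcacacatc
Saa2: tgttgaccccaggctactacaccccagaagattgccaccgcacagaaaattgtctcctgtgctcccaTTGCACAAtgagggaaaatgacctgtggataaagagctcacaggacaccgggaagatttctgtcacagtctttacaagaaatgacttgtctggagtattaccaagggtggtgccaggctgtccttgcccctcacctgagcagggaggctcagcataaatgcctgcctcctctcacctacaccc
The motif starts 216 bases before the start of Lcn2 and 183 bases before that of Saa2. It was present in 11 of 19 promoters of the acute phase genes that rose (57.9%), in 10.1% of 819 promoters of all genes that rose, in 9.49% of 927 promoters of genes that fell and in 9.56% of all 32851 promoters. Of the 22180 genes, 16990 had at least 1 promoter in the table, and a gene with several counts each. The STAT motif TTCNNNGAA was present in 26.3% of the same 19 promoters and in 7.02% of all promoters. Matches describe the letters of these windows only.

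Genes of interleukin 1 and interleukin 6 signalling rose in 12 of 20 cases and fell in 1 (median 0.68). Il1r1, the signalling interleukin 1 receptor, had the second smallest p of all genes. It lay at 6.49, 7.02 and 7.94 in basal and at 9.16, 9.41 and 9.73 in clamped arrays, with no overlap, and rose by 2.33 ± 0.16 (limma adjusted p = 4.69e-12). Its ligands rose too. Il1b lay at 2.32, 2.62 and 4.06 in basal and at 4.60, 5.38 and 6.32 in clamped arrays (2.40 ± 0.25, limma adjusted p = 3.48e-08), and Il1a rose by 1.43 ± 0.19, both without overlap. The decoy receptor Il1r2 rose by 1.15 and the antagonist Il1rn by 1.09, whereas the accessory chain Il1rap fell by 0.72. On the interleukin 6 side Socs3, the feedback inhibitor of STAT3, rose by 1.98 ± 0.28, Stat3 by 0.60 and the receptor chain Il6ra by 0.76. Il6 itself differed by 0.56 and Il6st, the shared receptor chain gp130, by 0.20, neither past the threshold. Socs2 (1.35) and Cish (1.33), feedback inhibitors of growth hormone signalling, rose with them, and Socs2 lost its call in 3 of the 18 fits that leave out 1 array. The rises of Il1rn and Cish and the fall of Il1rap were not past the threshold with the basal arrays numbered under 44 left out. The list held 9 risen members without the basal arrays numbered 44 or higher and 9 without the arrays over 6 units.

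NF-kappaB and toll-like receptor genes rose in 11 of 25 cases and fell in 2 (median 0.52). Among feedback inhibitors Tnfaip3 (A20) rose by 1.88 and Nfkbia by 0.61, and the atypical inhibitor Nfkbiz rose by 1.46 ± 0.18. Cd14, the lipopolysaccharide co-receptor, lay at 2.40, 2.89 and 3.15 in basal and at 3.82, 4.99 and 5.42 in clamped arrays and rose by 1.96 ± 0.23 (limma adjusted p = 3.06e-07). Its ranges did not overlap. The subunit Rel rose by 1.24 ± 0.19 and Bcl3 by 1.31. Tlr5, the flagellin receptor, went the other way, with 3.91, 4.68 and 5.17 in basal and 3.11, 3.52 and 4.29 in clamped arrays (-1.03 ± 0.16, limma adjusted p = 1.77e-05), and Irak2 fell by 0.67. Tnf differed by 1.11 and Tlr4 by 0.24 without passing. The counts of risen members were 8 without the basal arrays numbered 44 or higher and 6 without the arrays over 6 units.

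Chemokines rose in 6 of 22 cases and fell in 2 (median 0.53). Beside Cxcl1, its close relative Cxcl2 lay at 1.27, 1.8 and 2.88 in basal and at 3.00, 3.76 and 5.6 in clamped arrays and rose by 2.05 ± 0.35, without overlap. Cxcl13, which attracts B cells, rose by 2.46 ± 0.46 with overlapping groups. Ccl3, a chemokine of myeloid cells, rose by 2.10 ± 0.44. Cxcl12, the ligand of CXCR4, fell by 0.54. Chemokines induced by interferon did not pass upwards: Cxcl10 differed by 1.04, Cxcl9 by 0.70, and Cxcl11 fell by 0.82, a call lost in 13 of 18 fits that leave out 1 array. Without the arrays over 6 units of acinar markers Cxcl2 (1.87, limma adjusted p = 0.0611) and Ccl3 (2.37, limma adjusted p = 0.0623) were not past the threshold, and 2 chemokines rose and 2 fell.

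The Cxcl1 promoter is shown as that of the marker chemokine, with the stretch that matches the NF-kappaB site on both strands in capitals (RefSeq, GRCm38.p6, chr5:90890995-90891244, plus strand).
Cxcl1: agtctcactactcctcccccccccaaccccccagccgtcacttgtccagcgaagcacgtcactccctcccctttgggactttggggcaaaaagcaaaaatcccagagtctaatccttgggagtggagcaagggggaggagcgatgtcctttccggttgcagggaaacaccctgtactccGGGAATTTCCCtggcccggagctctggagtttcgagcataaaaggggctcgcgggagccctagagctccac
The match begins 71 bases before the start of the gene. The NF-kappaB site was present in 2 of 5 promoters of chemokines that rose, in 4 of 10 promoters of NF-kappaB and toll-like receptor genes that rose, in 12.6% of promoters of all genes that rose, in 7.66% of those of genes that fell and in 7.25% of all promoters.

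Immediate early genes, which are induced within minutes without new protein synthesis, rose in 17 of 25 cases and fell in 0 (median 1.03). Of these genes 11 had no overlap between the groups, against 0.866% of all genes in that direction. Btg2, an antiproliferative gene, lay at 3.94, 4.90 and 5.42 in basal and at 7.12, 8.25 and 9.02 in clamped arrays and rose by 3.32 ± 0.27 (limma adjusted p = 1.87e-10). Among AP-1 subunits Junb rose by 2.45 ± 0.24, Jun by 2.32 ± 0.27, Fos by 2.22, Fosl2 by 1.22 and Jund by 0.95. Jun lay at 3.33, 4.13 and 4.62 in basal and at 4.91, 6.49 and 7.08 in clamped arrays. Nr4a1, an orphan nuclear receptor, rose by 2.05, Ier3 by 2.09, Klf6 by 1.45 and Zfp36, which destabilises AU-rich messenger RNAs, by 1.16. The response was not shared by every member of these families, since Fosb differed by 0.18, Myc by 0.33, Egr3 by -0.10, Nr4a2 by -0.15 and Nr4a3 by 0.11 without passing. Without the basal arrays numbered 44 or higher 15 members rose, and without the arrays over 6 units 13 did.

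The promoters of Btg2 and Zfp36 are shown because they hold motifs of growth factor and cAMP responses: TGACGTCA in Btg2 and a CArG box in Zfp36, in capitals (RefSeq, GRCm38.p6, chr1:134079156-134079405, minus strand, and chr7:28379229-28379478, minus strand).
Btg2: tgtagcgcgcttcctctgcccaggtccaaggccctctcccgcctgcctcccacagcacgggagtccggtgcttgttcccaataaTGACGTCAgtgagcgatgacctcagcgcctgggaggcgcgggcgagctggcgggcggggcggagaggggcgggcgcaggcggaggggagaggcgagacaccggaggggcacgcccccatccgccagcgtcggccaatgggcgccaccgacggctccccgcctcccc
Zfp36: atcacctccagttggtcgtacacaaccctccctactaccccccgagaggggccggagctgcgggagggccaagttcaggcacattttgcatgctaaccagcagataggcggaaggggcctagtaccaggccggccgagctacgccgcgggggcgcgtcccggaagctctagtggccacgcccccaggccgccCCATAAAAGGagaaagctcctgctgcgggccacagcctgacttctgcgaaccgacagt
The motif TGACGTCA was present in 4.15% of 819 promoters of genes that rose, in 1.29% of 927 promoters of genes that fell and in 1.55% of all promoters. A CArG box was present in 5 of 24 promoters of immediate early genes that rose, 4 of them alternative starts of Egr2 and the other that of Zfp36, and in 1.47% of all promoters. The rise of Egr2 (0.57 ± 0.18) passed in 5 of 18 fits that leave out 1 array and in neither reduced set. Without it Zfp36 alone held the box, among the 15 of 17 risen members that had a promoter and within the 250 bases searched.

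MAP kinase phosphatases and related inhibitors, which end growth factor signals, rose in 7 of 16 cases and fell in 0 (median 0.39). Dusp1 lay at 4.09, 4.42 and 5.06 in basal and at 5.43, 6.34 and 6.88 in clamped arrays and rose by 1.79 ± 0.19 (limma adjusted p = 4.19e-08). Dusp6, which acts on ERK, rose by 1.36 ± 0.21 and Spry4 by 1.31 ± 0.26. All 3 had no overlap. With the basal arrays numbered under 44 left out the rise of Spry4 was not past the threshold. The list held 5 risen members without the basal arrays numbered 44 or higher and 3 without the arrays over 6 units.

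Cell cycle inhibitors and p53 target genes rose in 7 of 18 cases and fell in 0 (median 0.21). Cdkn1a (p21) lay at 4.01, 4.46 and 5.27 in basal and at 6.84, 7.79 and 8.75 in clamped arrays, a rise of 3.18 ± 0.27 (limma adjusted p = 2.82e-10) with no overlap. Trp53inp1 rose by 2.13 ± 0.21, Gadd45g by 2.69 ± 0.38, Gadd45b by 1.87 ± 0.25 and Plk3 by 1.79 ± 0.23. The other 11 members were not past the threshold, among them Ccng1 (0.09), Bbc3 (0.18), Pmaip1 (0.09) and Phlda3 (0.12). Mdm2 rose by 0.37, a call lost without the arrays over 6 units. The list held 6 risen members without the basal arrays numbered 44 or higher and 5 without the arrays over 6 units. Genes of cell cycle progression gave 1 rise and 1 fall among 20 (median -0.04). Mki67 differed by 0.13, Ccnd1 by -0.22 and Top2a by -0.04.

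Glucocorticoid receptor targets rose in 13 of 19 cases and fell in 0 (median 0.83), and 9 had no overlap (0.866% of all genes in that direction). Cdkn1a, Dusp1 and the metallothioneins stand on this list and on others as well. Ddit4, an inhibitor of mTORC1, lay at 2.02, 2.81 and 4.26 in basal and at 4.51, 5.36 and 6.28 in clamped arrays and rose by 2.47 ± 0.28 (limma adjusted p = 1.31e-07). Zbtb16 rose by 2.38, Sult1e1, estrogen sulfotransferase, by 1.35, Fkbp5, a chaperone of the receptor, by 1.04, Per1 by 0.88 and Tat, tyrosine aminotransferase, by 0.83. Sgk1 rose by 0.53 and Tsc22d3 (GILZ) by 0.49. Both lost their call without the arrays over 6 units and with the basal arrays numbered under 44 left out, and Tsc22d3 also in 9 of 18 fits that leave out 1 array. Klf9 differed by 0.32 and the receptor Nr3c1 by 0.17. The list held 11 risen members without the basal arrays numbered 44 or higher and 10 without the arrays over 6 units.

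Cytosolic heat shock chaperones rose in 10 of 17 cases, and all 17 lay above 0 (median 0.62). Hspa1b, an inducible HSP70, lay at 3.15, 4.44 and 6.00 in basal and at 5.63, 7.18 and 8.76 in clamped arrays and rose by 2.69 ± 0.44 (limma adjusted p = 5.44e-05), with 8 of 9 clamped arrays above all basal ones. Chordc1 rose by 0.91 ± 0.14 and Bag3, a co-chaperone, by 0.79 ± 0.15. Hspa1a, a near-identical copy of Hspa1b, differed by 0.81 without passing, and the array may not separate both. Of the chaperones 5 rose without the basal arrays numbered 44 or higher and 3 without the arrays over 6 units. Genes of the unfolded protein response of the endoplasmic reticulum rose in 7 of 21 cases with all 21 above 0 (median 0.35), led by Herpud1 (0.77 ± 0.13) and Dnajb9 (0.97 ± 0.22); in the same reduced sets 3 and 2 rose. Targets of ATF4 rose in 7 of 21 cases (median 0.07), 6 and 2 in the reduced sets. Ppp1r15a rose by 1.07 ± 0.18, whereas Trib3 differed by -0.50, Slc7a11 by 0.07 and Psat1 by -0.03.

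The Hspa1b promoter is shown for the largest rise among chaperones, with the heat shock motif GAANNTTC in capitals (RefSeq, GRCm38.p6, chr17:34959239-34959488, minus strand).
Hspa1b: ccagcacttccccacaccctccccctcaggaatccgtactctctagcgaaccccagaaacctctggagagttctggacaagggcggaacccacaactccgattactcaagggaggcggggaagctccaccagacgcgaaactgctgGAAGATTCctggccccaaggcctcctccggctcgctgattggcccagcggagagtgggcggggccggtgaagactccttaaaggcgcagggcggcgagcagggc
This motif was present in 2 of 9 promoters of chaperones that rose, in 6.11% of promoters of all genes that rose and in 6.69% of all promoters.

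Of the metal handling genes 5 of 16 rose and 0 fell (median 0.13), and 5 rose in both reduced sets as well. Hmox1, heme oxygenase 1, lay at 5.82, 6.22 and 6.71 in basal and at 7.27, 8.47 and 9.19 in clamped arrays and rose by 2.00 ± 0.20 (limma adjusted p = 7.76e-09). Mt1 lay at 7.78, 8.46 and 9.02 in basal and at 9.56, 9.61 and 9.85 in clamped arrays (1.14 ± 0.15), and Mt2 rose by 1.00 ± 0.14. These metallothioneins bind zinc and copper. Tfrc, the transferrin receptor, rose by 1.28 ± 0.17 and Slc39a14, a zinc and iron importer, by 0.90. Groups of Hmox1, Mt1, Mt2 and Tfrc did not overlap.

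The Mt2 promoter is shown because it holds 5 matches to the metal response motif TGCNCNC, in capitals (RefSeq, GRCm38.p6, chr8:94172368-94172617, plus strand).
Mt2: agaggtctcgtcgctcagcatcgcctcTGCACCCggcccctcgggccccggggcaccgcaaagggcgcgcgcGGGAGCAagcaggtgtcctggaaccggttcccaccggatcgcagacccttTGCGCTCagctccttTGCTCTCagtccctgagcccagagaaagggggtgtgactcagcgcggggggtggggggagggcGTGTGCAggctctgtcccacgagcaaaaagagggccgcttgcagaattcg
A short motif such as this is common: 44.4% of all promoters, 50.5% of those of genes that rose and 54.9% of those of genes that fell hold at least 1 match.

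**Figure D3:**
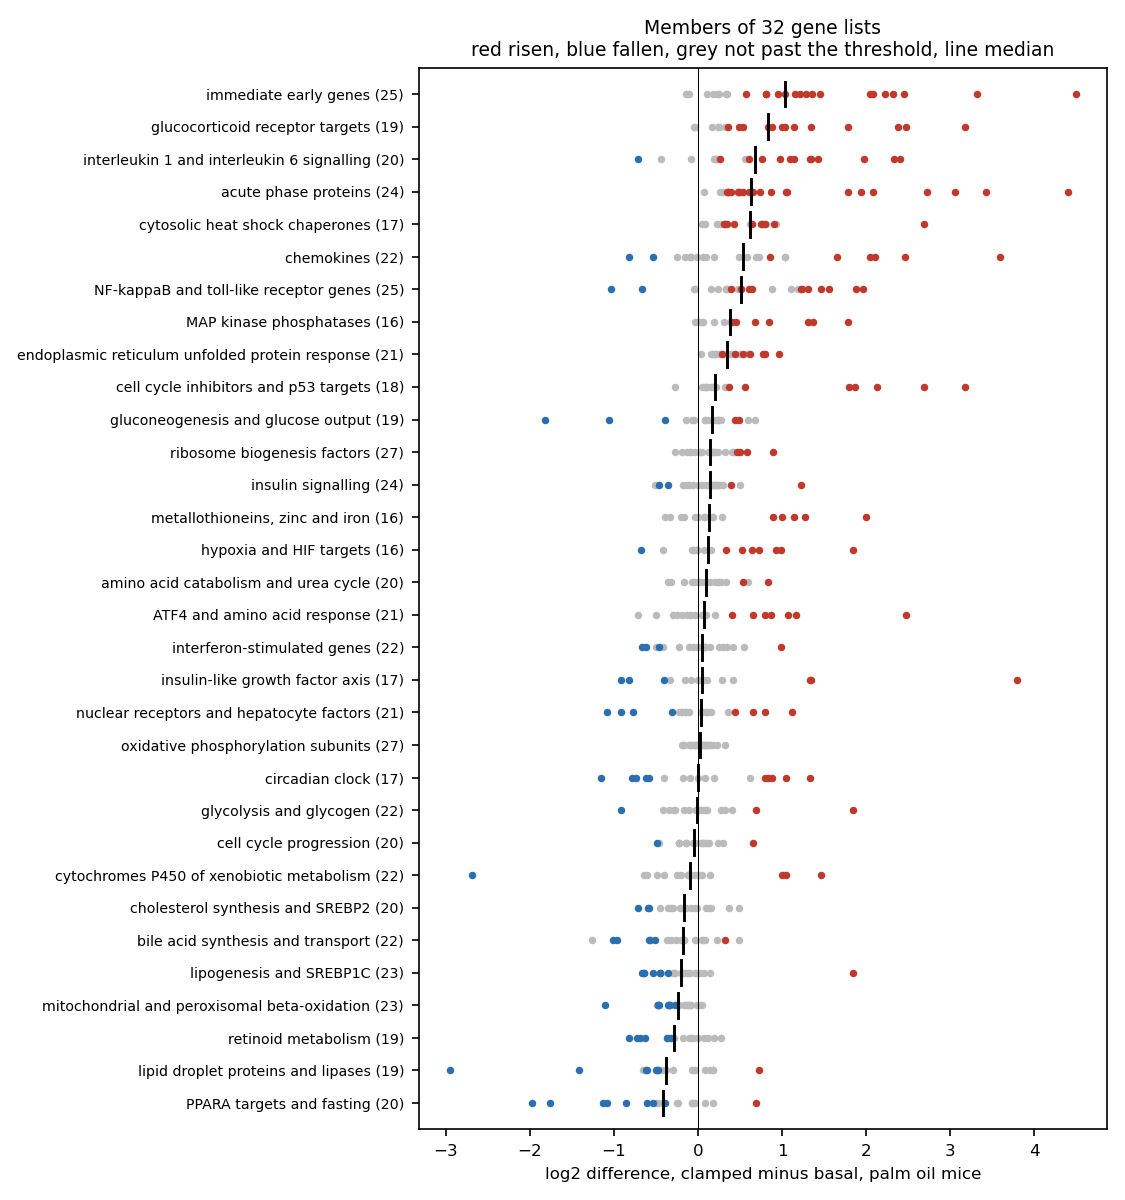
Each point is a measured member of 1 of 32 gene lists, placed by its log2 difference between clamped and basal palm oil mice, with the number measured in brackets and a black line at the median; lists are ordered by their median. Immediate early genes (median 1.03), glucocorticoid receptor targets (0.83) and acute phase proteins (0.63) lie to the right, and PPARA targets (-0.41) and lipid droplet proteins (-0.38) to the left.

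Genes of glucose output did not fall as a group. Of 19 measured, 2 rose and 3 fell (3.80% of all genes fell), with a median of 0.17. G6pc, the catalytic subunit of glucose-6-phosphatase, lay at 7.46, 7.97 and 8.83 in basal and at 4.13, 5.75 and 8.45 in clamped arrays. Under the clamp it spread over more than 4 log2 units, with 8 of 9 clamped arrays below all basal ones, and it fell by 1.81 ± 0.47 (limma adjusted p = 0.0113). The fall was not past the threshold without the basal arrays numbered 44 or higher (-1.91, limma adjusted p = 0.0524), without those numbered under 44 (-1.62, limma adjusted p = 0.204) and without the arrays over 6 units of acinar markers (-2.10, limma adjusted p = 0.15). Slc2a2 (GLUT2), the hepatocyte glucose transporter, lay at 8.11, 8.34 and 8.70 in basal and at 6.77, 7.40 and 7.66 in clamped arrays and fell by 1.06 ± 0.19 on the log2 scale, without overlap. Pck1, phosphoenolpyruvate carboxykinase, lay at 10.62, 11.09 and 11.33 in basal and at 10.82, 11.16 and 11.24 in clamped arrays. Its difference of 0.09 ± 0.09 was not past the threshold, with groups that overlapped, and took a negative sign after repeated quantile normalization (-0.03) and in both reduced sets (-0.04 and -0.09). Of the list 2 members rose and 2 fell with the basal arrays numbered 44 or higher left out, and without the arrays over 6 units 0 rose and 1 fell. Ppargc1a, a coactivator of this programme, differed by 0.17 ± 0.24, Fbp1 by -0.05 and Foxo1 by 0.12.

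Within insulin signalling 2 of 24 genes rose and 2 fell (median 0.14). Irs2, an insulin receptor substrate, lay at 4.31, 5.15 and 5.4 in basal and at 4.95, 6.27 and 7.71 in clamped arrays and rose by 1.23 ± 0.27 (limma adjusted p = 0.00255), with 8 of 9 clamped arrays above all basal ones. The rise was not past the threshold without the arrays over 6 units (1.28, limma adjusted p = 0.0841) or without the basal arrays numbered under 44 (1.07, limma adjusted p = 0.111). Mtor fell by 0.35 ± 0.07 and the phosphatase Ptprf by 0.47 ± 0.10, both without overlap. Mtor was lost without the arrays over 6 units (-0.33, limma adjusted p = 0.0551), and Ptprf with the basal arrays numbered under 44 left out. The list gave 1 rise and 2 falls without the basal arrays numbered 44 or higher, and 0 and 2 without the arrays over 6 units. Insr differed by 0.09 and Irs1 by -0.52 without passing.

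The largest rise on a metabolic list was that of Igfbp1, which binds insulin-like growth factors in plasma. It lay at 5.25, 5.85 and 6.98 in basal and at 8.84, 9.86 and 10.85 in clamped arrays and rose by 3.80 ± 0.32 (limma adjusted p = 2.82e-10), or 13.9-fold, with no overlap. Other genes of the axis moved both ways, with 3 of 17 risen and 3 fallen. Igfbp5 fell by 0.91 ± 0.16 and Igfals, the acid-labile subunit, by 0.83 ± 0.20, while Igf1 differed by 0.10. With the basal arrays numbered 44 or higher left out 2 rose and 4 fell, against 2 and 2 without the arrays over 6 units, and 1 and 1 with the basal arrays numbered under 44 left out. Igfals was not past the threshold without the arrays over 6 units (-0.91, limma adjusted p = 0.151). Insulin is known to lower both Igfbp1 and G6pc through FOXO1 in liver, as background. In these arrays the pair moved in opposite directions.

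The promoters of Igfbp1 and G6pc are shown for that reason: each holds 1 insulin response motif, TGTTTTG on either strand, in capitals (RefSeq, GRCm38.p6, chr11:7197537-7197786, plus strand, and chr11:101367466-101367715, plus strand).
Igfbp1: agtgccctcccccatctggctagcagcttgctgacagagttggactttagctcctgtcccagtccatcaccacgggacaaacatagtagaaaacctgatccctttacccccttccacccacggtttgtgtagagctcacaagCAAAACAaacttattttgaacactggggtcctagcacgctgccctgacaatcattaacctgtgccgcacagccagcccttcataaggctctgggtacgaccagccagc
G6pc: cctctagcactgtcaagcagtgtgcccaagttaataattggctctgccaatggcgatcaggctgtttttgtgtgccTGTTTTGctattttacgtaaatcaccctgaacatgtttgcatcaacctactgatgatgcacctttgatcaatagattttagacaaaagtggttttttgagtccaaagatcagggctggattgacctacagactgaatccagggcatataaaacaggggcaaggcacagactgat
It starts 108 bases before the start of Igfbp1, on the opposite strand, and 174 bases before that of G6pc. It was present in 4.40% of promoters of genes that rose, in 4.21% of those of genes that fell and in 5.56% of all promoters.

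Glycolysis and glycogen genes gave 2 rises and 1 fall among 22 (median -0.01). Pfkfb3, which makes the activator of phosphofructokinase, lay at 1.79, 3.38 and 4.30 in basal and at 4.79, 5.10 and 5.56 in clamped arrays and rose by 1.85 ± 0.24 without overlap. Pklr, liver pyruvate kinase, fell by 0.92 ± 0.17. Pdk4, which inhibits pyruvate dehydrogenase, differed by 0.69 ± 0.22 (limma adjusted p = 0.0478), a call that 9 of 18 fits leaving out 1 array lost; it was also lost under the rank sum test (adjusted p = 0.0835), in both reduced sets (0.50 and 0.50), with array weights, with the replicate block, in the 18 palm oil arrays alone and with the acinar covariate. Of 16 hypoxia-inducible genes, Pfkfb3 among them, 7 rose and 1 fell (median 0.12), with 4 and 2 risen in the reduced sets. Adm, adrenomedullin, rose by 0.93 ± 0.13, whereas Vegfa differed by -0.05 and Slc2a1 by -0.01.

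Lipogenic genes fell in 7 of 23 cases and rose in 1 (median -0.20). Srebf1 lay at 4.18, 4.75 and 5.13 in basal and at 3.67, 4.07 and 4.29 in clamped arrays and fell by 0.66 ± 0.14 (limma adjusted p = 0.00121), with 7 of 9 clamped arrays below all basal ones. Elovl5, a fatty acid elongase, fell by 0.53 ± 0.11 and Acly, ATP citrate lyase, by 0.45 ± 0.11. Fasn, fatty acid synthase, lay at 5.55, 6.25 and 6.56 in basal and at 5.47, 5.78 and 6.45 in clamped arrays and differed by -0.27 ± 0.18 (limma adjusted p = 0.448), and Scd1 differed by -0.13. The 1 rise was that of Lpin1, a phosphatidate phosphatase that is also a nuclear coactivator. It lay at 5.61, 6.54 and 8.12 in basal and at 8.39, 8.91 and 9.25 in clamped arrays (1.85 ± 0.35), without overlap. Of the members that fell, 5 were called without the basal arrays numbered 44 or higher and 2 without the arrays over 6 units; Elovl5 (-0.55, limma adjusted p = 0.069) and Acly were lost in the latter. Cholesterol synthesis gave 3 falls among 20 (median -0.17), of Sc5d (-0.60 ± 0.10), Stard4 (-0.71 ± 0.15) and Fdft1 (-0.58 ± 0.17). Fdft1 lost its call in 5 of 18 fits that leave out 1 array and in both reduced sets, and Stard4 without the arrays over 6 units. Hmgcs1 differed by -0.15 and Sqle by 0.49.

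Lipid droplet proteins and lipases fell in 7 of 19 cases and rose in 1 (median -0.38). Beside G0s2, Fitm1 and Fitm2, which partition triglyceride into droplets, fell by 1.41 ± 0.26 and 0.62 ± 0.13, and Lipe, hormone-sensitive lipase, by 0.49 ± 0.10. Plin2, a droplet coat protein, fell by 0.61, a call lost under the rank sum test and without the arrays over 6 units, while the lipase Pnpla2 (ATGL), the target of G0s2, differed by 0.18. G0s2 was 1 of 2 members that fell without the arrays over 6 units of acinar markers, where Fitm1 (-1.02, limma adjusted p = 0.104), Fitm2 (-0.49, limma adjusted p = 0.164) and Lipe (-0.38, limma adjusted p = 0.0536) did not pass. The rise of Hilpda (0.72), an inhibitor of lipolysis, was lost in 6 of 18 fits that leave out 1 array.

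PPARA targets of fasting fell in 8 of 20 cases and rose in 1, Pdk4 (median -0.41). The acyl-CoA thioesterases, which release free fatty acids from their CoA esters, led the list. Acot4 lay at 4.83, 5.37 and 6.01 in basal and at 3.35, 3.57 and 4.45 in clamped arrays and fell by 1.76 ± 0.19 (limma adjusted p = 6.86e-08), without overlap. Acot3 fell by 1.98 ± 0.25 and Acot2 by 1.13 ± 0.19. Acot1 lay at 6.77, 7.03 and 7.51 in basal and at 5.58, 6.34 and 6.99 in clamped arrays (-0.85 ± 0.23, limma adjusted p = 0.0165). It lost its call without the basal arrays numbered 44 or higher (-0.89, limma adjusted p = 0.0559), without those numbered under 44 (-0.77, limma adjusted p = 0.207) and without the arrays over 6 units (-1.15, limma adjusted p = 0.0582). These 4 genes are close copies in 1 cluster, so that their signals may not be fully separate. Ppara itself fell by 0.54 ± 0.10 and Vnn1, pantetheinase, by 1.09. Cpt1a, which admits fatty acids to mitochondria, lay at 8.65, 8.78 and 9.07 in basal and at 8.41, 8.51 and 8.71 in clamped arrays (-0.25 ± 0.09, limma adjusted p = 0.103). It passed under 4 of the alternatives, the rank sum test among them. Fgf21, a fasting hormone, differed by -0.49 ± 0.23 (limma adjusted p = 0.246). In the reduced sets 7 and 5 members fell.

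Enzymes of beta-oxidation fell in 8 of 23 cases and rose in 0 (median -0.23). Acaa1b, a peroxisomal thiolase, lay at 8.26, 8.42 and 9.14 in basal and at 6.66, 7.46 and 8.17 in clamped arrays and fell by 1.11 ± 0.17 (limma adjusted p = 3e-05), without overlap. Decr1 fell by 0.48 ± 0.09. The others were small: Acadm fell by 0.27, a call lost in 9 of 18 fits that leave out 1 array, and Acadl differed by -0.11 and Hadha by -0.13. Without the basal arrays numbered 44 or higher 5 fell, and without the arrays over 6 units 2 did. With the basal arrays numbered under 44 left out 2 fell and 1 rose. Subunits of oxidative phosphorylation gave 0 calls among 27 by limma (median 0.02, differences from -0.19 to 0.33), with 3 at an unadjusted p under 0.05 and 0 called by the rank sum test. With the basal arrays numbered under 44 left out 3 of them rose (median 0.12), and after repeated quantile normalization 1 fell (median -0.03).

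Genes of bile acid synthesis and transport fell in 5 of 22 cases and rose in 1 (median -0.18). Cyp7a1, the rate-limiting enzyme, lay at 7.35, 8.24 and 9.23 in basal and at 5.68, 6.92 and 8.57 in clamped arrays. It differed by -1.26 ± 0.47 (limma adjusted p = 0.103), with 6 of 9 clamped arrays below all basal ones, and passed with array weights and with the 18 palm oil arrays alone. Hsd3b7 fell by 0.57 ± 0.11, and Klb, the co-receptor of fibroblast growth factors 15 and 21, by 0.96 ± 0.22, a call lost without the arrays over 6 units (-1.10, limma adjusted p = 0.0666). Nr0b2 (SHP), the repressor of Cyp7a1, differed by 0.06. The list gave 0 rises and 5 falls without the basal arrays numbered 44 or higher, 0 and 2 without the arrays over 6 units, and 1 and 1 with the basal arrays numbered under 44 left out. Retinoid metabolism gave 6 falls and 0 rises among 19 (median -0.28), with Dhrs3 at -0.72 ± 0.12 and Rdh16 at -0.81 ± 0.19; 4 fell in each reduced set, Rdh16 not among those without the arrays over 6 units.

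Among xenobiotic cytochromes P450 3 of 22 rose and 1 fell (median -0.10). Cyp3a13 rose by 1.05 ± 0.14 and Cyp2c70, which makes muricholic acids, by 1.00 ± 0.15. Cyp2b9 and Cyp2b10, close relatives, moved apart: Cyp2b9 lay at 3.36, 5.33 and 8.0 in basal and at 1.52, 2.18 and 5.24 in clamped arrays, and Cyp2b10 rose by 1.46 ± 0.36 from a median of 1.44. The rise of Cyp2b10 was lost under the rank sum test, without the arrays over 6 units and on leaving out those basal arrays numbered under 44. Regulators of hepatocyte identity gave 4 rises and 4 falls among 21, and 2 and 2 without the arrays over 6 units. Cebpd, an acute phase factor, rose by 1.12 ± 0.12 without overlap, and Nr2f2 (COUP-TFII) lay at 4.71, 4.90 and 5.42 in basal and at 3.33, 3.87 and 4.49 in clamped arrays and fell by 1.08 ± 0.14. Hnf4a rose by 0.44 ± 0.09, opposite to its antisense transcript Hnf4aos, and was not past the threshold without the arrays over 6 units (0.32, limma adjusted p = 0.121).

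The circadian clock list moved in both directions, 5 of 17 rising and 5 falling (median 0.00). The time of day at which livers were taken is not given in the sources used here, and clamped livers were taken later after the gavage. Bhlhe40 rose by 0.79 ± 0.13, Nfil3 by 1.05 ± 0.20, Per1 by 0.88 ± 0.17 and Cry1 by 1.33. Nr1d1 (REV-ERB alpha) fell by 1.15, Per3 by 0.74 ± 0.14 and Dbp by 0.79. Without the arrays over 6 units 2 rose and 3 fell, and with the basal arrays numbered under 44 left out 6 rose and 2 fell. Without the arrays over 6 units Nfil3, Cry1 and Dbp were not past the threshold, and Per3 and Dbp were not with the basal arrays numbered under 44 left out.

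Interferon-stimulated genes gave 1 rise and 3 falls among 22 (median 0.05), and 0 calls in either reduced set. Ribosome biogenesis factors rose in 4 of 27 cases (median 0.15), with Nop58 at 0.89 ± 0.20 and Rrs1 at 0.58 ± 0.14. That share (14.8%) lies near those called in the third (11%) and brightest (17.5%) of the 4 parts by mean level. Of these factors 4 rose without the basal arrays numbered 44 or higher and 2 without the arrays over 6 units. With a common median or with the basal arrays numbered under 44 left out 6 rose. Amino acid catabolism and the urea cycle gave 2 rises among 20, of Tat and Aass (0.54 ± 0.12), and Aass was not past the threshold without the arrays over 6 units.

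Of 14 neutrophil markers, 6 rose and 0 fell (median 0.31), and the mean of the list lay between 1.66 and 1.98 in basal and between 2.45 and 2.96 in clamped arrays. S100a8, 1 of the marker genes of the comparison, is among the 6 and is part of this mean. S100a9, the partner of S100a8, lay at 3.90, 4.51 and 5.21 in basal and at 6.22, 7.05 and 7.38 in clamped arrays (2.47 ± 0.22, limma adjusted p = 1.26e-09). Retnlg rose by 2.01 ± 0.21, Mmp8, a collagenase of neutrophil granules, by 1.59 ± 0.22, Cxcr2, the receptor of Cxcl1, by 1.20 and Csf3r by 0.87. Other markers stayed at background values in both groups, with medians near 1: Ly6g at 1.02 and 0.95, Camp at 0.97 and 0.93, Mpo at 1.26 and 1.32 and Elane at 1.4 and 1.33. In whole liver RNA more cells of a type and more RNA per cell cannot be told apart, nor can fewer cells and less RNA. Without the arrays over 6 units 7 of the 14 rose.

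Resident macrophage markers rose in 4 of 12 cases. Marco, a scavenger receptor, lay at 2.73, 3.81 and 4.41 in basal and at 4.16, 5.51 and 6.38 in clamped arrays and rose by 1.65 ± 0.30, while Clec4f, a lectin of Kupffer cells, differed by -0.10 and Vsig4 by 0.10. C1qc (0.46), Timd4 (0.56) and C1qb (0.40) also rose, and none of the 3 passed without the arrays over 6 units. In sinusoidal endothelium Lyve1, a hyaluronan receptor, lay at 5.41, 6.02 and 6.28 in basal and at 6.84, 7.06 and 8.01 in clamped arrays (1.29 ± 0.14), whereas Kdr (VEGFR2) fell by 0.78 ± 0.18, and the remaining 10 markers were not past the threshold. Kdr was not past it with the basal arrays numbered under 44 left out. Monocyte markers gave 2 rises among 9, Chil3 (1.46) and Plac8 (0.52), both lost in each reduced set. B cell markers fell in 2 of 9 cases, and all 9 lay below 0. Their mean lay between 1.74 and 2.14 in basal and between 1.3 and 1.69 in clamped arrays, near the background. With the basal arrays numbered 44 or higher left out 1 fell, and without the arrays over 6 units 0 did; both calls were also lost after repeated quantile normalization, with a common median and with the basal arrays numbered under 44 left out. Markers of T and NK cells, of erythroid cells and of platelets gave 0 calls by limma among 11, 3 and 8, with 2, 1 and 1 at an unadjusted p under 0.05 and 0, 0 and 0 called by the rank sum test.

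**Figure D4:**
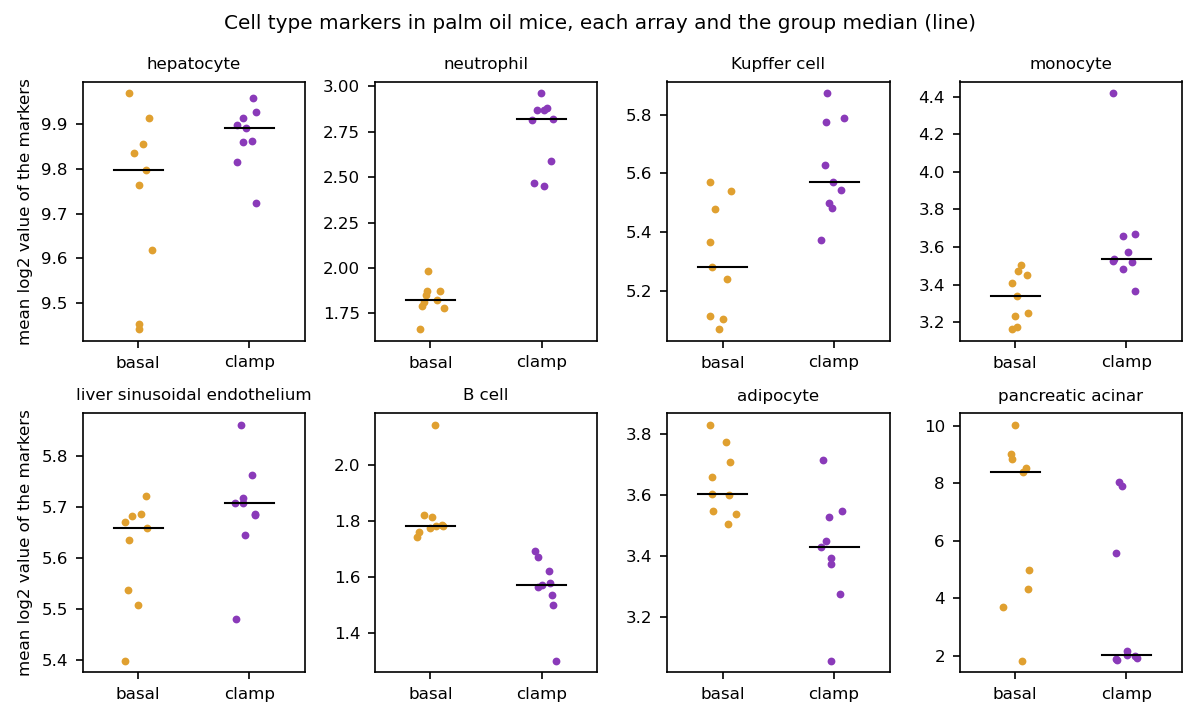
Mean log2 value of the markers of 8 cell types in each of the 9 basal and 9 clamped palm oil arrays, with lines at the group medians; the vertical axes differ between panels. Neutrophil means, of which the marker gene S100a8 is part, do not overlap (1.66 to 1.98 and 2.45 to 2.96). Hepatocyte means lie between 9.44 and 9.97 in both groups, and acinar means range from 1.83 to 10.04 in basal and from 1.87 to 8.04 in clamped arrays.

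Pancreatic acinar transcripts were present in part of the arrays of both groups. The list median difference was -2.92 over 10 genes, none of which passed in limma, with 10 at an unadjusted p under 0.05 and 0 called by the rank sum test. With the basal arrays numbered under 44 left out, all 10 fell past the threshold (median -5.36). The 3 palm oil basal arrays that remain there are all over 6 units. Ctrb1, chymotrypsinogen, lay at 2.08, 10.60 and 11.40 in basal and at 1.36, 2.25 and 10.41 in clamped arrays, a difference of -3.77 ± 1.48 (limma adjusted p = 0.134). Individual mice of either group thus stood at both ends of the range. With the acinar mean as a covariate 1247 genes were called, of which 1178 were among the 1678, and without the arrays over 6 units 736 were called, 636 of them among the 1678.

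The same contrast in mice given water shares no array with the palm oil mice, but it carries the same array features. Animal numbers ran from 16 to 32 in the clamped and from 36 to 52 in the basal control mice. Acinar markers were over 6 units in 4 of 7 basal and 1 of 7 clamped control arrays. Control basal arrays numbered 44 or higher had interquartile ranges from 2.44 to 2.54, against 2.64 to 2.85 in clamped ones. The part of these features in the shared calls was not tested. In control mice 1033 genes rose (4.66%) and 907 fell (4.09%). Both contrasts called 1092 genes, which is 65.1% of the palm oil calls and 56.3% of the control calls: 590 rose in both, 502 fell in both and 0 moved in opposite directions. Across all 22180 genes the differences correlated with Pearson r = 0.80 and Spearman rho = 0.56; genes are not independent replicates. Of the 586 genes called in palm oil mice and not in control mice, 558 (95.2%) had the same sign in control mice.

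The marker genes differed in the same direction in both. Egr1 differed by 4.38 ± 0.41 in control mice, Lcn2 by 4.50 ± 0.38, S100a8 by 3.58 ± 0.37, Cxcl1 by 3.17 ± 0.35 and G0s2 by -2.91 ± 0.19. The difference of differences, palm oil minus control, was 0.12 for Egr1 (95% interval -1.0 to 1.23), -0.10 for Lcn2 (-1.12 to 0.93), 0.27 for S100a8 (-0.72 to 1.26), 0.42 for Cxcl1 (-0.53 to 1.37) and -0.04 for G0s2 (-0.55 to 0.47). These intervals leave room for a 2-fold difference in each of Egr1, Lcn2, S100a8 and Cxcl1, and not in G0s2. Lpin1 differed by 1.85 in palm oil and by 0.69 in control mice, and Cyp7a1 by -1.26 and -2.25 ± 0.53 (difference of differences 0.99, limma adjusted p = 1). For Lpin1 the difference of differences did not pass either, since the smallest limma adjusted p of any gene was 0.526.

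No gene of 22180 passed the test of this interaction (0%), with a smallest limma adjusted p = 0.526. At an unadjusted p under 0.05 there were 773 genes, 101 of them among the called ones, where 1109 are expected from as many tests without any difference. The count was 0 as well in the brighter part of the genes, at an adjusted p under 0.1, with the replicate block and in both reduced sets. For 88.9% of the called genes the 95% interval of the interaction excluded a 2-fold difference. The smallest p belonged to Cops7b, a subunit of the COP9 signalosome, at 4.16, 4.40 and 4.8 in basal and 2.93, 3.47 and 4.10 in clamped palm oil arrays. It fell by 0.93 ± 0.15 there and differed by 0.15 ± 0.16 in control mice (interaction -1.07, limma adjusted p = 0.526). Olfr558, Rnf24, Il17re and Zfp454 followed, with interactions of 0.69, -0.74, -0.49 and -0.71.

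**Figure D5:**
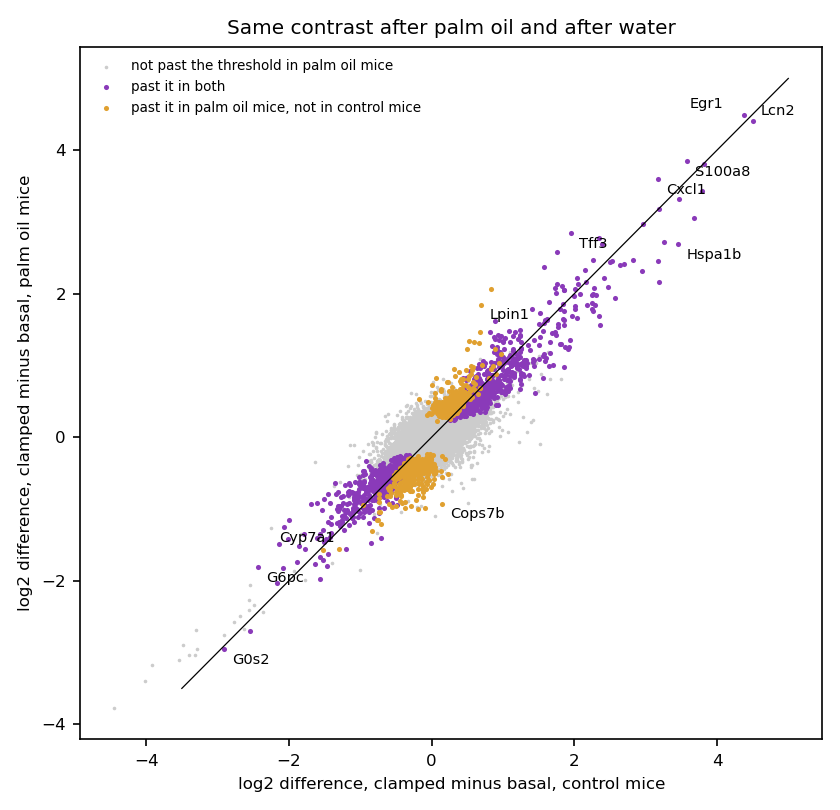
Each point is a gene, with the log2 difference between clamped and basal control mice on the horizontal and palm oil mice on the vertical axis; the line marks equal differences. The 1092 genes past the threshold in both (purple) all have the same sign in both, Lpin1 and Cops7b lie off the line among the 586 genes called in palm oil mice and not in control mice (orange), and Cyp7a1 is grey because it did not pass in palm oil mice.

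The calls differed in how far they depended on single arrays and settings. Of the 239 called members of the lists, 195 kept their call in each of the 18 fits that leave out 1 palm oil array. There were 105 that kept it there and under every other setting in which the gene was tested, apart from a 2-fold minimum. Dim genes were not tested in the brighter part of the genes, and the fit of every probe set was not counted. At an adjusted p under 0.1 a call cannot be lost. Egr1, Lcn2, S100a8, Cxcl1, G0s2, Igfbp1, Saa2, Btg2, Cdkn1a and Il1r1 are among the 105.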

How the data were processed

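RNA of 32 mouse livers was amplified, labelled and hybridised to Affymetrix Mouse Gene 2.1 ST arrays, 1 mouse per array, per the labels' protocols. The log2 values were deposited by the authors, and the submitters' processing notes name RMA and, as software, Affymetrix Expression Console, version 1.3.0.187. They were used without further normalization. RMA includes a normalization between arrays, which can hide a shift of all genes at once; the deposited arrays still differ in spread (interquartile ranges from 2.44 to 2.96). Arrays were grouped by their titles. Probe sets were named through the platform annotation, those with several symbols (1814) or none listed (16010) were left out of the gene tests, and for 1082 genes with several probe sets the brightest was kept.

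A linear model with 4 group means was fitted to 22180 genes on all 32 arrays with limma 3.58.1 (R 4.3.3), which leaves 28 residual degrees of freedom, and p-values were adjusted over all genes by the Benjamini-Hochberg method with a threshold of 0.05. The mean difference is given with its moderated SE. The fit was tested on simulated data. Exact rank sum tests used the 9 and 9 palm oil arrays, and exact permutation tests gave the p-values of correlations (scipy 1.17.1). The text names the 15 largest rises and falls among genes past the threshold, the 10 smallest p-values and the 5 smallest interaction p-values. Also named are a set of metabolic genes, and members of each list by size and call, with further members for context. Predicted gene models and small RNAs were left out of the rankings by size and by p. The members and lists were chosen with earlier results of these data known. Same-numbered palm oil arrays did not deviate together (correlations from -0.116 to 0.134, with 1 of 9 clamped arrays correlating best with its own number), so that the numbers were not taken as pairs. Promoter windows came from RefSeq, GRCm38.p6.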

Additional observations from a re-analysis of the deposited data

Results flagged for a closer look

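In 7 of 94 groups checked (47 genes in the basal and the clamped palm oil arrays) 1 array lay far from the nearest of the others; chance gives this in about 1 of 20 groups. The high values were 3.70 for Moxd1 in basal replicate 9, 7.52 for Orm2 in basal replicate 6, 5.24 for Cyp2b9 in clamped replicate 8, 3.28 for R3hdml in clamped replicate 2 and 6.25 for Pdk4 in clamped replicate 6. The low values were 10.82 for Pck1 in clamped replicate 4, with the next array at 11.11, and 3.94 for Ppargc1a in basal replicate 7, with the next at 4.47. The arrays were different ones in each case.

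Of the 16010 probe sets that the annotation does not list with a gene, which no comparison above uses, 263 passed the same test in palm oil mice (1.64%), 138 of them higher and 125 lower in the clamped arrays.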

How the results depend on the processing

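The count of 1678 called genes (835 risen, 843 fallen) stayed within 1.5 times under the other gene filter, probe set rules, scalings, variance models, thresholds and the rank sum test, from 1495 with the rank sum test to 2280 at an adjusted p under 0.1, with these exceptions. A 2-fold minimum left 263 genes (185 and 78). With the basal arrays numbered 44 or higher left out 529 genes rose, of 1290 called, and without the arrays over 6 units of acinar markers 736 were called (290 and 446). The latter sets hold fewer samples. With the basal arrays numbered under 44 left out, an alternative chosen after seeing the data, 2180 genes were called. These 2180 held only 956 of the 1678 calls (57%), and the 1290 held 1079 of them (64.3%). Leaving out 1 palm oil array gave 1385 to 1645 called, 694 to 842 risen and 675 to 834 fallen genes. The replicate block gave 1629 called genes (828 and 801), 1923 in control mice and 0 for the interaction. In control mice the 1940 calls became 1120 with the rank sum test, 1026 without the arrays numbered 44 or higher and 993 without the arrays over 6 units. Pck1, not past the threshold, changed sign to -0.027 after repeated quantile normalization, to -0.038 once the basal arrays numbered 44 or higher were left out, and to -0.086 without the arrays over 6 units; the cause was not tested. Dim genes limit the calls: 0.216% of the dimmest of 4 equal parts passed.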

Other observations

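Of the called genes, 1439 stood on none of the lists. Families sharing a symbol stem were counted after the values were seen, for stems with at least 8 tested and 5 called genes. In the Hsd family of hydroxysteroid dehydrogenases 7 of 19 fell and 0 rose (median -0.18), or 36.8% called. No comparison with the 7.57% of all genes is drawn, because only stems with at least 5 called genes were kept. Of the parts by mean level, the brighter ones had 11% and 17.5% of their genes called. Hsd3b5 is among the 7 and lost its call under settings named above. Counts for the stems in the reduced sets were not taken. Hsd3b2 lay at 4.14, 5.48 and 6.38 (lowest, median and highest) in basal and at 2.92, 3.95 and 4.84 in clamped arrays and fell by 1.49 ± 0.33 on the log2 scale. Hsd3b3 fell by 1.34 ± 0.31, and Hsd17b6, which acts on androgens, lay at 8.25, 8.51 and 8.81 in basal and at 6.97, 7.54 and 7.87 in clamped arrays. The Hsd3b genes are close copies, and their signals may not be separate. All 7 called genes of the Map stem (45 tested, 15.6% called, median 0.004) rose, among them the MAP kinase kinase kinases Map3k1 (0.88), Map3k6 (0.86) and Map3k8 (0.68). The 7 share a symbol stem only and also include Map1lc3b (0.72). The share of 15.6% lies between the 11% and 17.5% of the brighter parts. It is not read as a result about the stem.

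Solute carriers moved both ways, with 16 risen and 24 fallen of 361 (11.1% called, against 7.57% of all genes). In the third and brightest of the 4 parts by mean level 11% and 17.5% of genes were called. Slc10a2, a bile acid transporter, lay at 3.74, 4.57 and 5.92 in basal and at 6.38, 7.07 and 7.62 in clamped arrays and rose by 2.17 ± 0.22 without overlap; it differed by 3.18 in control mice. Slc37a1, a glucose-6-phosphate transporter, rose by 1.98, and Slc38a2, an amino acid transporter, by 1.12. Slc25a10, the mitochondrial dicarboxylate carrier, fell by 1.01 ± 0.15, Slc6a6, the taurine transporter, by 0.84 and Slc16a1, a lactate transporter, by 0.82. Cyp17a1, a steroid hydroxylase, rose by 2.06 ± 0.34 in palm oil mice, where all 9 clamped arrays (5.32 to 8.51) lay above the basal ones (3.63 to 5.10), and differed by 0.83 in control mice. The difference between both did not pass (limma adjusted p = 1).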
